A study of Mus musculus with 29 samples.

Results

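Gpx1, Gpx3 and Gpx4, Prdx1, Prdx5 and Prdx6, catalase (Cat) and the superoxide dismutases Sod1, Sod2 and Sod3 are the enzymes described here, in RNA sequencing of the aortic arch of mice. They were taken by name, as 10 of the 56748 genes in the count table. Each of the 10 symbols matched 1 gene, and all 10 were among the 12353 genes with enough counts to be tested, that is more than 10 counts in more than 10 samples.

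Superoxide is a by-product of respiration and of NADPH oxidases, and superoxide dismutases turn it into hydrogen peroxide. Peroxidases then reduce hydrogen peroxide to water, glutathione peroxidases with glutathione as the donor and peroxiredoxins mostly with thioredoxin, whereas catalase splits hydrogen peroxide in peroxisomes without a donor. In the vessel wall superoxide consumes the nitric oxide released by the endothelium, and extracellular superoxide dismutase, which smooth muscle cells secrete, protects nitric oxide on its way through the wall. Several of these genes are known targets of NRF2, a transcription factor that binds the antioxidant response element.

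That element was looked for in the 250 bases before the start of the canonical transcript, because it would show which members carry the best known control sequence of this pathway. The core searched was TGACNNNGC on both strands, in the GRCm39 genome at the positions of the GENCODE annotation. It was found in 3 of the 10 members and in 10.7% of the 12342 tested genes with such a window. The 3 stretches are given 5′ to 3′ along the gene with 12 bases on each side, and capitals mark the core, which lies on the opposite strand in Prdx1 and Sod1.
Prdx1, chr4:116542651-116542683, + strand: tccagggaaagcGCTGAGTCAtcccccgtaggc
Prdx6, chr1:161079141-161079173, − strand: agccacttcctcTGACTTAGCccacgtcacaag
Sod1, chr16:90017301-90017333, + strand: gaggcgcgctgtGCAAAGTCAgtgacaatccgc
The first base of the core lies 78 bases before the start in Prdx1, 63 in Prdx6 and 95 in Sod1. The windows of Prdx1, Gpx3, Gpx4, Sod2 and Cat lie inside the annotated gene, and that of Gpx1 does so in part. Each of these genes has a transcript that starts further upstream. The letters GTAAACA, a core site of FOXO factors, were in 0 of the 10 windows and in 2.28% of those of the tested genes. A match is a description of letters and not a measured binding site, and no match says only that these letters are not in the window.

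Wildtype (WT) mice were Ercc1 +/+ littermates of Ercc1Δ/− mice. The latter carry 1 null allele and 1 truncated, hypomorphic allele of Ercc1, a DNA repair gene, in every cell from conception, so that no cell type was targeted. All mice were C57BL6J/FVB hybrids fed AIN93G pellets and housed singly. Food was freely available (ad libitum, AL), or it was cut back weekly from early adulthood to a fixed lower ration (dietary restriction, DR). The WT groups used here held 5 AL-fed mice of 6 weeks, 4 AL-fed mice of 22 weeks and 5 DR-fed mice of 22 weeks, and the Ercc1Δ/− groups held 5, 4 and 5 in the same order, with 1 sample per mouse and both sexes in each group. A further AL-fed WT mouse of 22 weeks, sample 003, with 400410 counts on genes, was left out and enters only where stated. Counts on genes totalled 921167 to 9616382 per sample. The totals of the AL-fed Ercc1Δ/− mice of 22 weeks (1294980 to 3855444) lay below all those of the AL-fed WT mice of that age (3903589 to 9616382). On DR the totals were 921167 to 2572523 in Ercc1Δ/− mice and 2660422 to 6124471 in WT mice, also without overlap. Ercc1 itself was lower in Ercc1Δ/− mice at 6 weeks (log2 fold change -1.41, standard error (SE) 0.18, edgeR adjusted p = 0.00032), at 22 weeks on AL (-0.97, SE 0.20, edgeR adjusted p = 0.00271) and on DR (-1.01, SE 0.19, edgeR adjusted p = 0.000566). All 7 smooth muscle markers, among them Myh11 and Acta2, were detected in every group. Their sum was 61517 to 95361 normalized counts in AL-fed Ercc1Δ/− mice of 22 weeks and 116867 to 140277 in their WT controls, without overlap. By edgeR 6 of the 7 were called lower in Ercc1Δ/− mice there (median log2 fold change -0.77) and 7 of 7 on DR (median -0.61), and their part in the results below was not tested.

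Tissue other than the vessel wall differed between samples. The summed level of 13 markers of white and brown fat ran from 2526 to 15933 normalized counts, and it was highest in sample 027, an Ercc1Δ/− mouse of 6 weeks. It was 9587 or more in 4 of 5 DR-fed and 2 of 4 AL-fed Ercc1Δ/− mice of 22 weeks, in samples 017 and 021 of the WT mice on DR, and 5178 or less in the AL-fed WT mice of 22 weeks. Sample 003, the AL-fed WT mouse of that age that was left out, had 15759. The sum of 15 macrophage markers was 2573 to 4532 in AL-fed Ercc1Δ/− mice of 22 weeks and 1118 to 1630 in their WT controls. On DR it was 1703 to 2076 in 4 Ercc1Δ/− mice and 5105 in the other, sample 016. None of the fat, macrophage or smooth muscle markers was at 0 throughout a group. In bulk tissue fewer cells of a type cannot be told apart from less RNA per cell. Sample 013 of the AL-fed Ercc1Δ/− mice held 784 normalized counts of 6 skeletal muscle markers, against 40.2 or less in the WT mice fed AL.

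Normalized counts are counts scaled by TMM factors to the mean library size of 3683502. Sod3, the secreted dismutase, was the most abundant member per length of its canonical transcript, with a mean of 1393 normalized counts per kb over the 28 samples. Gpx1, the cytosolic and mitochondrial glutathione peroxidase, followed with 971 per kb and Gpx4, which reduces lipid peroxides in membranes, with 665 per kb. Prdx1 had 236, Prdx5 202, Cat 202, Gpx3 196 and Prdx6 138 per kb. The lowest were Sod1 with 84.6 and Sod2 with 53.7 normalized counts per kb, which have the longest canonical transcripts, 5.315 and 5.983 kb. Reads were counted over the whole gene body, so that these levels per transcript length are approximate. Within a gene the 6 group means lay close together. The highest group mean exceeded the lowest by 2.08 times for Gpx3 and by 1.22 (Sod3) to 1.5 times (Prdx6) for the others. In no member did neighbours in the order of group means separate without overlap.

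**Figure D1:**
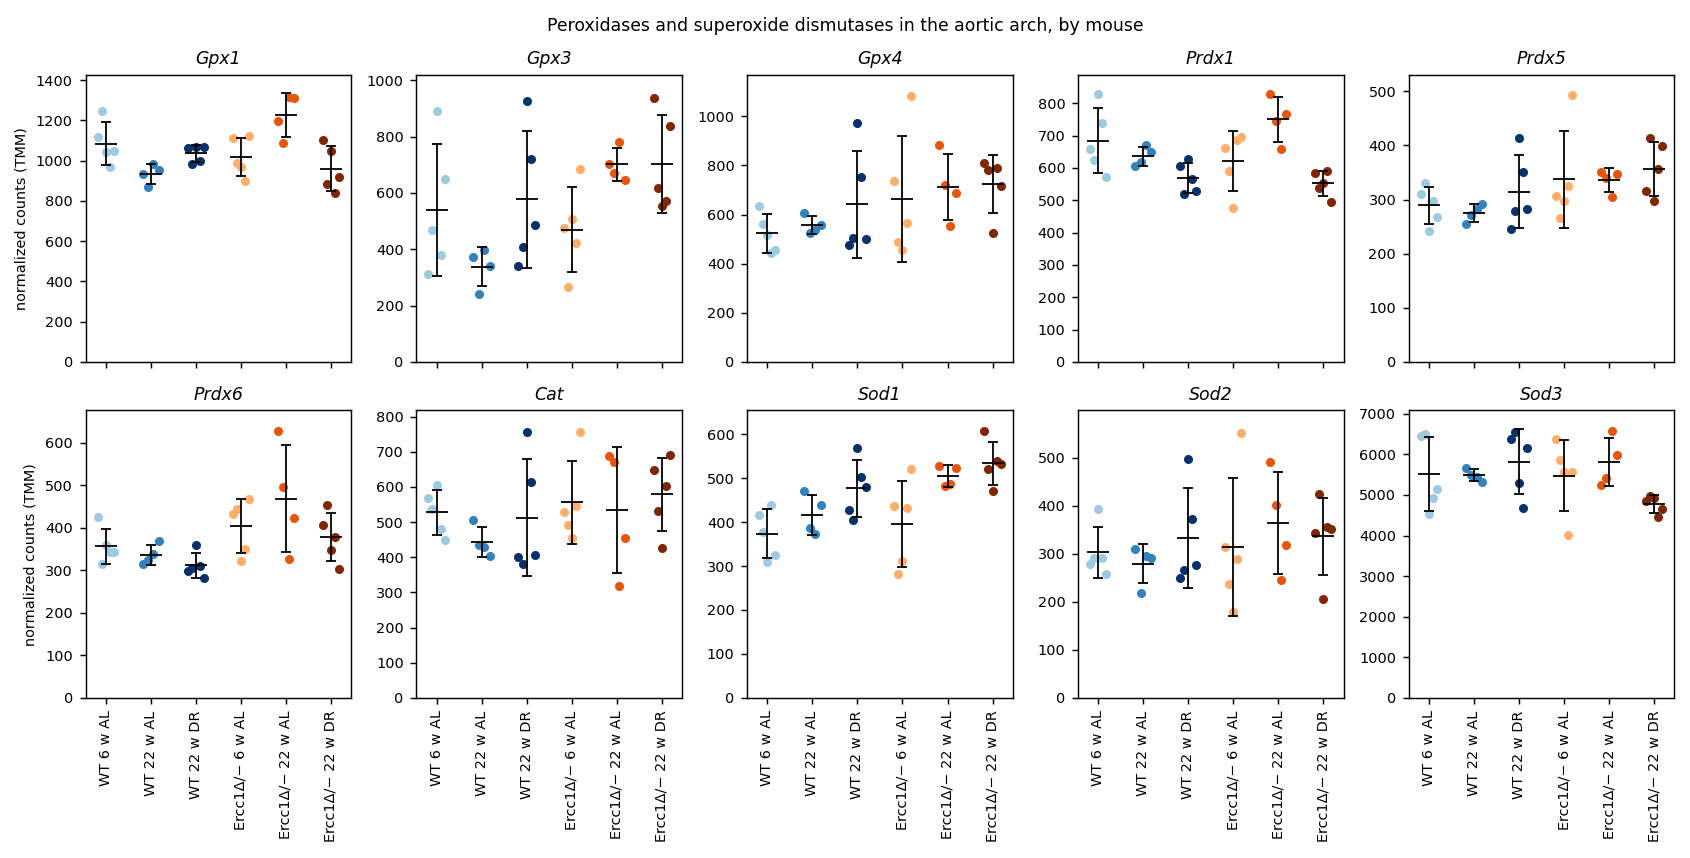
Normalized counts of the 10 members (y axis, from 0) in each mouse (points) of the 6 groups (x axis), with the group mean and SD as bars. Gpx1 sits highest in AL-fed Ercc1Δ/− mice of 22 weeks (1089 to 1317), Prdx1 is lower on DR (495 to 592) than on AL (659 to 829) in Ercc1Δ/− mice, and Gpx3, Gpx4, Sod2 and Cat spread widely within groups.

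A member counts as called below when its Benjamini-Hochberg adjusted p over all tested genes was at most 0.05 and its change at least 1.2-fold. At 6 weeks Ercc1Δ/− and WT mice did not differ past this threshold in any of the 10 members, where 1.70% of the tested genes were called. An unadjusted p under 0.05 was reached by 0 members in edgeR, and DESeq2 called 0 too. The log2 fold changes ran from -0.18 for Gpx3 (SE 0.29) to 0.35 for Gpx4 (SE 0.20). The genotypes overlapped in all 10, and 2.87% of tested genes did not overlap.

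At 22 weeks on AL, 2 of the 10 members were called, both higher in Ercc1Δ/− mice, and 12.0% of the tested genes were called in this comparison, so that the share of members lies near the background. All 10 members had a positive log2 fold change, with a median of 0.37, while the median of all tested genes was 0.03. With the fat markers in the model the values of Gpx4, Sod2 and Cat turned negative (-0.05, -0.19 and -0.14), and with the macrophage markers those of Prdx5 and Cat (-0.03 and -0.27). None of these was called in any of the 3 models. The macrophage sums of the genotypes did not overlap in this comparison, so that this model hardly separates genotype from macrophage markers. Its SE was wider, 0.17 in place of 0.09 for Gpx1 and 0.60 in place of 0.32 for Gpx3. The members called were Gpx1 and Gpx3. The genotypes did not overlap in Gpx1, Gpx3, Prdx5 and Sod1, 4 of the 10 members, against 18.6% of tested genes.

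Gpx1 (chromosome 9, 108216102 to 108217546 of GRCm39) gave 1195, 1089, 1317 and 1309 normalized counts in the 4 AL-fed Ercc1Δ/− mice of 22 weeks. The AL-fed WT mice of that age gave 934, 867, 984 and 954. Every Ercc1Δ/− mouse lay above every WT mouse. The means were 1227 ± 108 (SD, n = 4) and 935 ± 49.4 (SD, n = 4), a log2 fold change of 0.43 (SE 0.09, edgeR adjusted p = 0.00303). The exact permutation test gave p = 0.0286 (n = 4 and 4), the smallest two-sided p that 4 against 4 samples allow. Leaving out 1 mouse at a time kept the call in 8 of 8 fits (0.40 to 0.44), and with sample 003, which had 1160 normalized counts from 116 raw counts, the value was 0.33 (edgeR adjusted p = 0.0389). The correlation of Gpx1 with the summed fat markers within groups was -0.01 over 28 samples that share library scaling, and with the fat markers in the model the value was 0.38 (edgeR adjusted p = 0.0154). With the macrophage markers in the model it was 0.54 (SE 0.17, edgeR adjusted p = 0.265). In that fit 34 of all tested genes were called in place of 1487, and the part of macrophages in the result was not tested further.

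The change of Gpx1 with age differed between the genotypes. At 6 weeks the 5 Ercc1Δ/− mice gave 1112, 987, 967, 901 and 1123 normalized counts and the 5 WT mice 1115, 1249, 1041, 968 and 1050, so that the groups overlapped. From 6 to 22 weeks Gpx1 had a log2 fold change of 0.28 in AL-fed Ercc1Δ/− mice (SE 0.08, edgeR adjusted p = 0.0668) and of -0.24 in AL-fed WT mice (SE 0.09, edgeR adjusted p = 0.377). Neither passed the threshold, but the genotype by age interaction did (0.51, SE 0.12, edgeR adjusted p = 0.0445), as 1 of 10 members against 0.842% of tested genes. The call was kept in 2 of 18 fits that left out 1 mouse and in 3 of 9 other alternatives, with values from 0.42 to 0.57.

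Under DR the 5 Ercc1Δ/− mice gave 1104, 886, 1048, 840 and 918 normalized counts of Gpx1. Sample 006, at 1104, was the only one of them inside the AL range of 1089 to 1317. The mean was 959 ± 112 (SD, n = 5), a log2 fold change of -0.37 from AL (SE 0.08, edgeR adjusted p = 0.0166; exact permutation test, p = 0.0317, n = 5 and 4). In WT mice the mean on DR was 1037 ± 41.8 (SD, n = 5), with a log2 fold change of 0.17 from AL (SE 0.08, edgeR adjusted p = 0.352). The opposite signs were tested as a genotype by diet interaction, which was -0.54 (SE 0.11, edgeR adjusted p = 0.06; DESeq2 adjusted p = 0.000557). It ranked 13 by p among all tested genes, of which 0.0971% were called, and was called in 2 of the fits that left out 1 mouse. On DR the genotypes differed by -0.12 (SE 0.07, edgeR adjusted p = 0.335). Without sample 016, whose macrophage markers were high, the diet effect in Ercc1Δ/− mice was -0.39 (edgeR adjusted p = 0.0166), and without sample 004, 026 or 029 it missed the threshold (edgeR adjusted p = 0.0565, 0.0569 and 0.0516).

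Gpx3 (chromosome 11, 54793279 to 54802424) encodes the secreted glutathione peroxidase of plasma and extracellular space. It gave 703, 670, 781 and 647 normalized counts in AL-fed Ercc1Δ/− mice of 22 weeks and 373, 241, 399 and 339 in their WT controls. The groups did not overlap (exact permutation test, p = 0.0286, n = 4 and 4). The log2 fold change of 1.06 (SE 0.32, edgeR adjusted p = 0.0444) was the largest of any member in any comparison between 2 groups. Its call was lost in each of the 8 fits that left out 1 mouse (0.87 to 1.15, edgeR adjusted p = 0.0573 to 0.164), and with sample 003, at 550 normalized counts, the value was 0.92 (edgeR adjusted p = 0.0722).

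Outside that comparison Gpx3 varied widely among mice of 1 group. WT mice of 6 weeks gave 311, 468, 892, 380 and 651 normalized counts, Ercc1Δ/− mice of 6 weeks 476, 265, 506, 422 and 684, and WT mice on DR 339, 409, 928, 722 and 487. Ercc1Δ/− mice on DR gave 937, 618, 552, 573 and 836. In the WT group on DR the highest values were in samples 017 and 021, which also had the highest fat markers of the group, 13563 and 10351 normalized counts against 2570 to 4362. These were the females of the group, and the males gave 339, 409 and 487, so that sex and fat cannot be told apart there. Within groups the correlation of Gpx3 with the summed fat markers was 0.61 on the log scale over 28 samples, and with these markers in the model the genotype difference at 22 weeks on AL was 0.83 (edgeR adjusted p = 0.176). With the macrophage markers it was 0.53 (SE 0.60, edgeR adjusted p = 0.877). Of the 13 fat markers 2 were called higher in that comparison, and their sum was 3586 to 14593 in Ercc1Δ/− mice and 3210 to 5178 in WT mice. Their part in the result was not tested. The DR effect on Gpx3 was 0.03 in Ercc1Δ/− mice (SE 0.28, edgeR adjusted p = 0.977) and 0.74 in WT mice (SE 0.28, edgeR adjusted p = 0.267).

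Gpx4 (chromosome 10, 79883000 to 79892273) was called in no comparison. Its group means ran from 523 ± 79.8 (SD, n = 5) in WT mice of 6 weeks to 724 ± 118 (SD, n = 5) in Ercc1Δ/− mice on DR. The largest value, 1081 normalized counts, was in sample 027, the mouse with the highest fat markers of all. Its correlation with the summed fat markers within groups was 0.91. Gpx4 has near-identical copies elsewhere in the genome, and 1 of them in the table, Gpx4-ps2, had 12 to 110 raw counts where Gpx4 had 129 to 1497, so that reads of Gpx4 may be split between them.

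**Figure D2:**
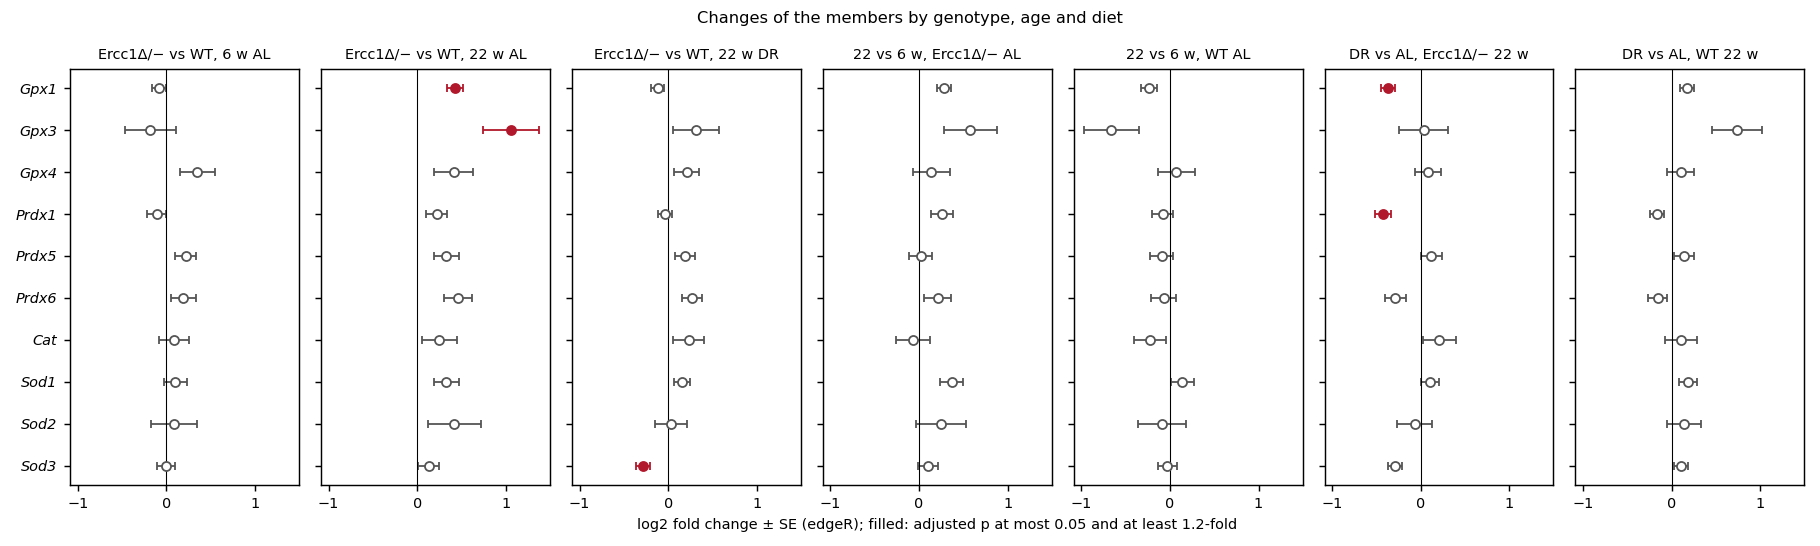
Log2 fold change (x axis, edgeR, bars are ± 1 SE) of each member (y axis) in 7 comparisons of 2 groups, with filled red points for calls. In the panel of genotype at 22 weeks on AL all 10 points lie to the right of 0, with Gpx1 (0.43) and Gpx3 (1.06) called. The uncalled values of Gpx4, Prdx5, Sod2 and Cat turn with a marker covariate. Under DR in Ercc1Δ/− mice Gpx1 (-0.37) and Prdx1 (-0.43) lie to the left.

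Diet changed 2 of the 10 members in Ercc1Δ/− mice at 22 weeks, Gpx1 and Prdx1, both lower on DR, where 1.64% of the tested genes were called. The median log2 fold change of the 10 members was -0.02 and that of all tested genes 0.00. DR-fed and AL-fed Ercc1Δ/− mice did not overlap in Prdx1 and Sod3, against 5.02% of tested genes. In WT mice DR changed 0 of the 10 members, where 1.28% of tested genes were called. An unadjusted p under 0.05 was reached by 3 members in edgeR, Gpx1, Gpx3 and Prdx1, and DESeq2 called 0. DR-fed and AL-fed WT mice overlapped in all 10, and 5.14% of tested genes did not overlap.

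Prdx1 (chromosome 4, 116532123 to 116558398), a cytosolic peroxiredoxin with the antioxidant response element core shown above, gave 584, 539, 554, 592 and 495 normalized counts in Ercc1Δ/− mice on DR. The AL-fed Ercc1Δ/− mice gave 829, 745, 659 and 766. Every mouse on DR lay below every mouse on AL. The means were 553 ± 38.6 (SD, n = 5) and 750 ± 70.4 (SD, n = 4), a log2 fold change of -0.43 (SE 0.09, edgeR adjusted p = 0.0102). The exact permutation test gave p = 0.0159 (n = 5 and 4), the smallest two-sided p that this design allows. Without sample 004 or 026, both AL-fed, the adjusted p was 0.052 and 0.0506 (edgeR). With the macrophage markers in the model the value was -0.36 (edgeR adjusted p = 0.072), and with the fat markers it was -0.44 (edgeR adjusted p = 0.0108). Of the 15 macrophage markers 13 were tested, and 7 were called lower on DR in Ercc1Δ/− mice.

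In WT mice Prdx1 also had a negative log2 fold change on DR, -0.17 (SE 0.08, edgeR adjusted p = 0.377), with 605, 518, 627, 567 and 530 normalized counts on DR and 606, 617, 671 and 649 on AL. Sample 017, at 627, was the only WT mouse on DR inside the AL range, and sample 007 lay just below it. The interaction of genotype and diet for Prdx1 was -0.25 (SE 0.12, edgeR adjusted p = 0.565). Between genotypes Prdx1 differed by 0.22 at 22 weeks on AL (SE 0.12, edgeR adjusted p = 0.26) and by -0.04 on DR (SE 0.08, edgeR adjusted p = 0.801). The copies Gm21399 and Gm7204 of Prdx1 held at most 9 and 4 raw counts in a sample.

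Prdx6 (chromosome 1, 161051417 to 161079098), a peroxiredoxin that also has phospholipase activity and uses glutathione, was highest in AL-fed Ercc1Δ/− mice of 22 weeks with 626, 495, 326 and 423 normalized counts. Their WT controls gave 314, 323, 339 and 368. Sample 013, the mouse with skeletal muscle RNA, was the 1 Ercc1Δ/− mouse inside the WT range. The females of its group gave 626 and 495 and the males 326 and 423. The log2 fold change was 0.46 (SE 0.16, edgeR adjusted p = 0.0583), and without sample 013 it was 0.61 (edgeR adjusted p = 0.0115). On DR the genotype difference was 0.27 (SE 0.11, edgeR adjusted p = 0.13) and the diet effect in Ercc1Δ/− mice -0.29 (SE 0.12, edgeR adjusted p = 0.233). Prdx6 varied against the summed smooth muscle markers within groups (r = -0.73 over 28 samples).

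Prdx5 (chromosome 19, 6884065 to 6887792), which is found in mitochondria and peroxisomes, gave 351, 339, 304 and 348 normalized counts in AL-fed Ercc1Δ/− mice of 22 weeks and 255, 271, 283 and 292 in WT mice. The groups did not overlap, but the log2 fold change of 0.33 (SE 0.14) missed the threshold over all genes (edgeR adjusted p = 0.127). On DR it was 0.19 (SE 0.11, edgeR adjusted p = 0.274). Prdx5 followed the summed fat markers within groups with r = 0.73. With the macrophage markers in the model its genotype value at 22 weeks on AL was -0.03, where the macrophage sums of the genotypes did not overlap. Trmt112 overlaps Prdx5 on the opposite strand. It was called in no comparison, and neither were Tnip1, which overlaps Gpx3, and Scaf4, which overlaps Sod1.

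Catalase (Cat, chromosome 2, 103284194 to 103316185) was called in no comparison. Its group means ran from 443 ± 43.2 (SD, n = 4) in WT mice of 22 weeks on AL to 579 ± 104 (SD, n = 5) in Ercc1Δ/− mice on DR. In AL-fed Ercc1Δ/− mice of 22 weeks the values were 689 and 672 in the 2 females and 318 and 455 in the 2 males. The females also had the higher fat markers, so that sex and fat cannot be told apart in this group. The log2 fold change to WT mice was 0.25 (SE 0.20, edgeR adjusted p = 0.469). Cat followed the summed fat markers within groups with r = 0.88, and sample 013, at 318, had the lowest fat markers of its group. The genotype value of Cat was -0.14 with the fat markers and -0.27 with the macrophage markers in the model, and it was called in neither. The macrophage sums of these genotypes did not overlap.

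Among the dismutases, Sod3 (chromosome 5, 52521070 to 52528883) differed between the genotypes on DR. It gave 4847, 4983, 4930, 4451 and 4660 normalized counts in Ercc1Δ/− mice on DR and 6376, 6563, 5290, 4684 and 6168 in WT mice on DR. Sample 021, a female with high fat markers, was the only WT mouse inside the Ercc1Δ/− range. Samples 017 (5290) and 021 (4684) were the females of the WT group on DR. They also had its highest fat markers, so that sex and fat cannot be told apart there. The means were 4774 ± 218 (SD, n = 5) and 5816 ± 799 (SD, n = 5), a log2 fold change of -0.28 (SE 0.08, edgeR adjusted p = 0.0203; exact permutation test, p = 0.0317, n = 5 and 5). It was the 1 of 10 members called in this comparison, in which 13.0% of all tested genes were called. The genotypes overlapped in all 10, and 8.27% of tested genes did not overlap. With the fat markers in the model the value was -0.20 (edgeR adjusted p = 0.152), and with the macrophage markers it was -0.18 (edgeR adjusted p = 0.529). Leaving out sample 006, 007, 010, 028 or 029 lost the call (edgeR adjusted p = 0.0527 to 0.068). Thinning all libraries to the lowest total lost it too (-0.24, edgeR adjusted p = 0.0641), and the totals of the genotypes on DR did not overlap.

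The 4 AL-fed Ercc1Δ/− mice of 22 weeks gave 5254, 5419, 6566 and 5982 normalized counts of Sod3, and every mouse on DR lay below them (exact permutation test, p = 0.0159, n = 5 and 4). The diet effect in Ercc1Δ/− mice was -0.29 (SE 0.08, edgeR adjusted p = 0.0779; DESeq2 adjusted p = 0.0211). In WT mice it was 0.10 (SE 0.08, edgeR adjusted p = 0.684), and the interaction of genotype and diet was -0.38 (SE 0.12, edgeR adjusted p = 0.278). Sod3 had the smallest spread of any member in a group, a coefficient of variation of 2.64% in AL-fed WT mice of 22 weeks.

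Sod1 (chromosome 16, 90017408 to 90027657), the cytosolic copper and zinc enzyme, gave 528, 482, 486 and 523 normalized counts in AL-fed Ercc1Δ/− mice of 22 weeks and 470, 386, 373 and 438 in WT mice, without overlap. Its log2 fold change was 0.33 (SE 0.14, edgeR adjusted p = 0.132). From 6 to 22 weeks it was 0.37 in AL-fed Ercc1Δ/− mice (SE 0.13, edgeR adjusted p = 0.125), and without sample 027 of 6 weeks 0.47 (edgeR adjusted p = 0.0308). The copy Gm8566 held at most 8 raw counts.

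Sod2 (chromosome 17, 13224095 to 13259591), the manganese enzyme of mitochondria, was called in no comparison. At 22 weeks on AL the Ercc1Δ/− mean of 364 ± 106 (SD, n = 4) was the highest and the WT mean of 279 ± 40.5 (SD, n = 4) the lowest of the 6 groups, with a log2 fold change of 0.42 (SE 0.30, edgeR adjusted p = 0.398). Of all members it followed the summed fat markers most closely within groups (r = 0.95), and with these markers in the model the genotype value of Sod2 was -0.19. Sex was not removed from the correlation. At 22 weeks on AL the Ercc1Δ/− females gave 491 and 401 normalized counts and the males 246 and 319.

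**Figure D3:**
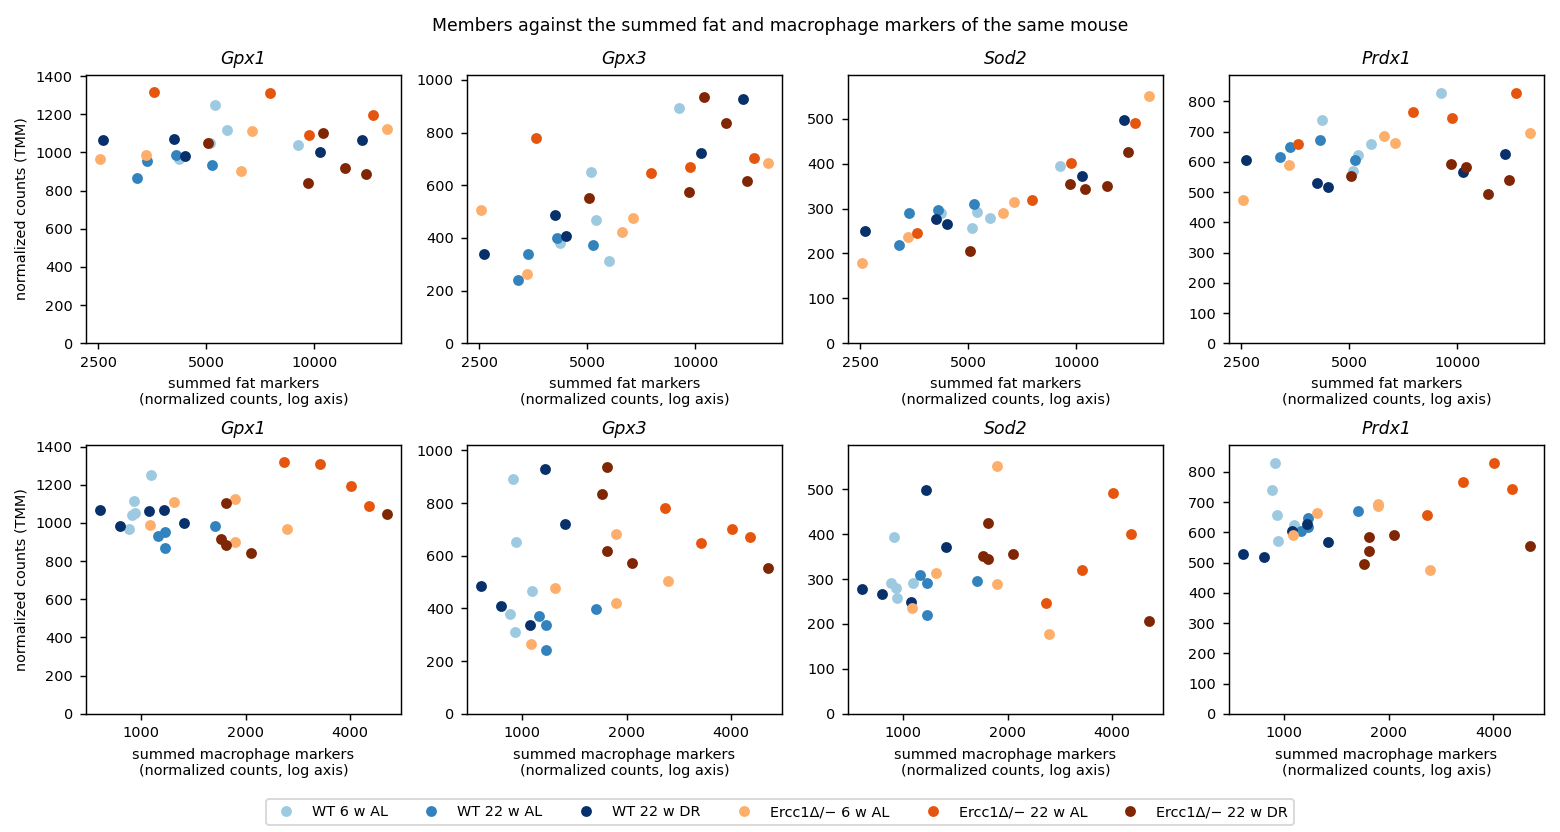
Normalized counts of Gpx1, Gpx3, Sod2 and Prdx1 (y axes, from 0) against the summed fat markers (upper row) and macrophage markers (lower row) of the same mouse (x axes, log scale), coloured by group. Sod2 increases along the fat markers across groups (r = 0.95 within groups), whereas Gpx1 does not (r = -0.01).

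Age by itself called 0 of the 10 members in either genotype. In AL-fed Ercc1Δ/− mice 4.69% of tested genes were called between 6 and 22 weeks and 6.78% did not overlap, 9 of 10 members had a positive log2 fold change with a median of 0.23 (all tested genes 0.01), and all 10 overlapped. An unadjusted p under 0.05 was reached by Gpx1, Prdx1 and Sod1 in edgeR, and DESeq2 called Gpx1 (edgeR adjusted p = 0.0668, DESeq2 adjusted p = 0.00927). In AL-fed WT mice 0.235% of tested genes were called and 3.85% did not overlap. There 2 of 10 members had a positive log2 fold change with a median of -0.08, Gpx1 and Gpx3 had an unadjusted p under 0.05, and DESeq2 called 0. Males and females differed in 0 of 10 members, where 0.186% of tested genes were called. Sod3 and Gpx1 had an unadjusted p under 0.05 for sex, and DESeq2 called 0. The means of Sod3 were 5762 in 17 males and 5010 in 11 females (edgeR adjusted p = 0.199).

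The genes that supply, recycle and surround these enzymes were taken from 9 lists of 139 genes in all, 123 of them tested. Between AL-fed genotypes at 22 weeks 26 of the 123 were called higher and 3 lower in Ercc1Δ/− mice, which is 23.6% of the list beside 12.0% of all tested genes, and the median was 0.23 on the log2 scale beside 0.03. On DR 20 were higher and 4 lower, 19.5% beside 13.0% of all tested genes, with a median of 0.09 beside 0.00. From 6 to 22 weeks 12 were called higher and 4 lower in AL-fed Ercc1Δ/− mice, 13% beside 4.69% of all tested genes. On DR 4 were lower and 0 higher in Ercc1Δ/− mice, 3.25% beside 1.64% of all tested genes. In WT mice 1, Pxdn, was lower, 0.813% beside 1.28%. With the macrophage markers in the model 0 of the 29 calls between AL-fed genotypes at 22 weeks were made. In that fit 34 of all 12353 tested genes were called in place of 1487. After thinning all libraries to the lowest total 13 genes of the lists and 775 of all tested genes were called. At 6 weeks 2 of the 123 were called, 1.63% beside 1.70% of all tested genes. They were Mtfr1 and the NADPH oxidase gene Nox4, both lower in Ercc1Δ/− mice. With age in WT mice 1 was called, 0.813% beside 0.235%. It was the matrix cross-linking amine oxidase Lox, which was lower at 22 weeks (-0.87, SE 0.15, edgeR adjusted p = 0.009).

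The thioredoxin system re-reduces peroxiredoxins. Beside 12.0% of all tested genes, 3 of its 12 genes were called in AL-fed Ercc1Δ/− mice of 22 weeks, all higher. Srxn1, the sulfiredoxin that repairs over-oxidized peroxiredoxins, had 258 ± 29.4 normalized counts (SD, n = 4) against 148 ± 7.27 (SD, n = 4) in their WT controls, and the log2 fold change was 0.82 (SE 0.12, edgeR adjusted p = 0.000112). Txnrd1, the cytosolic thioredoxin reductase, rose by 0.42 (SE 0.09, edgeR adjusted p = 0.00421) and the p53-induced Sesn2 by 0.73 (SE 0.16, edgeR adjusted p = 0.00424). On DR Srxn1 fell in Ercc1Δ/− mice to 176 ± 24.4 (SD, n = 5), -0.53 on the log2 scale (SE 0.11, edgeR adjusted p = 0.0138), the same direction as Prdx1 in that comparison. Between genotypes on DR the sestrin genes Sesn2, Sesn1 and Sesn3 were the called genes of this list, all higher in Ercc1Δ/− mice, beside 13.0% of all tested genes. Srxn1 and Txnrd1 were not called there.

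Of 6 tested relatives of the members, Prdx3, the mitochondrial peroxiredoxin, was higher in AL-fed Ercc1Δ/− mice of 22 weeks (0.81, SE 0.23, edgeR adjusted p = 0.0309) and Pxdn, the peroxidasin that cross-links collagen IV, was lower (-0.58, SE 0.13, edgeR adjusted p = 0.00389). Pxdn fell with age in AL-fed Ercc1Δ/− mice from 403 ± 41.1 (SD, n = 5) to 191 ± 33.8 (SD, n = 4) normalized counts, and its change with age differed between genotypes (-0.89, SE 0.17, edgeR adjusted p = 0.00793). Gpx7 of the endoplasmic reticulum also fell with age in these mice (-1.12, SE 0.20, edgeR adjusted p = 0.00117), and its relative Gpx8 fell on DR (-0.57, SE 0.13, edgeR adjusted p = 0.0268).

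NADPH is the source of reducing power for both systems. Beside 12.0% of all tested genes, 4 of 11 genes of its supply were called higher in AL-fed Ercc1Δ/− mice of 22 weeks and 0 lower. These were Aldh1l1 (88.9 ± 19.3 against 39.6 ± 1.31 normalized counts, SD, n = 4 each, edgeR adjusted p = 0.00118) and Mthfd2 (1.51, SE 0.39, edgeR adjusted p = 0.019) of folate metabolism, Idh1 (0.54, edgeR adjusted p = 0.0215) and G6pdx (0.71, edgeR adjusted p = 0.044), the first enzyme of the pentose phosphate pathway. Of 13 tested genes of glutathione synthesis and recycling 1 was called, beside 12.0% of all tested genes. It was the cystine transporter subunit Slc3a2 (0.54, SE 0.13, edgeR adjusted p = 0.00773). On DR Gclc, the rate-limiting enzyme of glutathione synthesis, was higher in Ercc1Δ/− than WT mice (0.50, SE 0.11, edgeR adjusted p = 0.00274).

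Glutathione peroxidases 1, 3 and 4 contain selenocysteine. Among 19 tested genes of selenoprotein synthesis and other selenoproteins 3 were called higher in AL-fed Ercc1Δ/− mice of 22 weeks. This share lies near the 12.0% of all tested genes called there. Selenop, the plasma carrier of selenium, had 3820 ± 561 normalized counts (SD, n = 4) against 2449 ± 161 (SD, n = 4) in WT mice (0.64, SE 0.12, edgeR adjusted p = 0.00143). Its receptor Lrp8 was higher too (0.85, edgeR adjusted p = 0.0469), and it fell on DR in Ercc1Δ/− mice (-1.12, SE 0.27, edgeR adjusted p = 0.035). Dio2, a selenoenzyme that activates thyroid hormone, rose by 1.14 (edgeR adjusted p = 0.0041). Of the 9 tested genes of the list for metal delivery 3 were called, beside 12.0% of all tested genes. The copper chaperone Atox1 (0.72, edgeR adjusted p = 0.0063) and the copper importer Slc31a1 (0.64, edgeR adjusted p = 0.021) were higher and Mtfr1 was lower (-0.47, edgeR adjusted p = 0.0141). Mtfr1 is known as a mitochondrial fission regulator and not as a metal carrier. Ccs, the copper chaperone of Sod1, was not among them.

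Among the sources of superoxide and hydrogen peroxide 6 of 16 genes were called higher and 1 lower in AL-fed Ercc1Δ/− mice of 22 weeks. In this comparison 12.0% of all tested genes were called. Ncf1 (1.66, SE 0.32, edgeR adjusted p = 0.0015) and Cybb (1.40, SE 0.29, edgeR adjusted p = 0.00216) encode subunits of the phagocyte NADPH oxidase. They stood beside 12 of 13 tested macrophage markers that were called higher in the same comparison, whose part in this was not tested. Noxo1, an organizer of the NOX1 oxidase, was lower (-1.27, SE 0.22, edgeR adjusted p = 0.000435). On DR Xdh, the xanthine oxidase gene, was the gene of this list with the smallest p, higher in Ercc1Δ/− mice (edgeR adjusted p = 0.000141) at 998 ± 125 (SD, n = 5) against 451 ± 141 normalized counts (SD, n = 5) in WT mice. None of the 21 tested genes of peroxisome assembly and matrix, the compartment of catalase, was called in any of the 10 comparisons by edgeR. In these comparisons 0.0971% to 13.0% of all tested genes were called.

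Of 16 further NRF2 targets 6 were called higher and 0 lower in AL-fed Ercc1Δ/− mice of 22 weeks, where 12.0% of all tested genes were called, and the median of the list was 0.39 on the log2 scale beside 0.03. The ferritin light chain Ftl1 rose from 879 ± 50.9 (SD, n = 4) to 1682 ± 186 normalized counts (SD, n = 4), and its change with age differed between the genotypes (0.69, SE 0.16, edgeR adjusted p = 0.0355), as that of Gpx1 did. Hmox1, heme oxygenase 1, rose by 1.87 (SE 0.31, edgeR adjusted p = 0.00076). Macrophages express both genes highly. On DR the heme transporter gene Slc48a1 fell in Ercc1Δ/− mice (-0.40, SE 0.08, edgeR adjusted p = 0.00952).

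**Figure D4:**
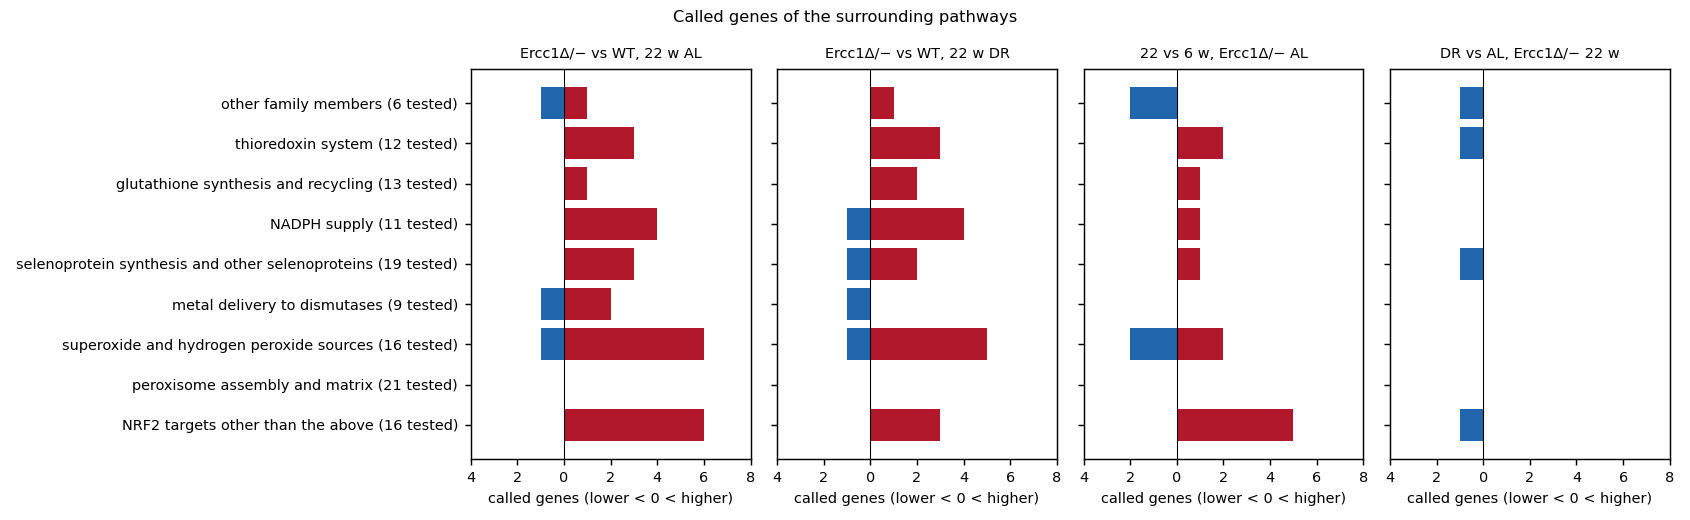
Number of called genes (x axis, higher to the right and lower to the left of 0) in each of the 9 lists (y axis, with the number tested) for 4 comparisons. At 22 weeks on AL the calls lie mostly to the right, with 6 each among NRF2 targets and among sources of superoxide and hydrogen peroxide. Under DR in Ercc1Δ/− mice the 4 calls lie to the left. Of all tested genes 12.0% were called at 22 weeks on AL and 1.64% under DR in Ercc1Δ/− mice.

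Across the 28 samples 36 of the 45 pairs of members had a positive correlation of log2 CPM (log2 of counts scaled to a common library size), with a median r of 0.38. These correlations are descriptions over samples that share groups and tissue makeup. The closest pairs were Gpx4 with Sod2 (r = 0.84, rho = 0.81) and with Prdx5 (r = 0.83, rho = 0.81), and Sod2 with Cat (r = 0.78, rho = 0.80). Sod3 ran against Cat (r = -0.45, rho = -0.48). Among all tested genes, those most like Sod2 were Uqcrfs1, Cycs and Dlat, each with r = 0.93, genes of the respiratory chain and of pyruvate dehydrogenase. Those most like Gpx4 were the glycolytic genes Pgm1 (r = 0.93), Eno1 (r = 0.92) and Aldoa (r = 0.92), and those most like Prdx5 were Uqcrc1, Sdhb and Eno1, each with r = 0.86. Cat ran with Nrg4 (r = 0.90), Prkar2b (r = 0.88) and Opa1 (r = 0.88).

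Gpx3 was most like Lpl (r = 0.83), the lipoprotein lipase gene, Ivns1abp (r = 0.80) and Tmem37 (r = 0.80). Sod3 was most like Arhgdia (r = 0.88), Mgat1 (r = 0.79) and Ctbp1 (r = 0.77), and Prdx6 most like Idh1 (r = 0.80), Ctsz (r = 0.77) and Deptor (r = 0.76). Sod1 had Galm (r = 0.82), Pmvk (r = 0.79) and Pim1 (r = 0.78) nearest to it, and Prdx1 had Rer1 (r = 0.76), Atp1b3 (r = 0.75) and Zfp229 (r = 0.75). The nearest to Gpx1 were less close, Nbl1 (r = 0.70), Chmp1a (r = 0.68) and Fbxl6 (r = 0.64), with rho of 0.55 to 0.59.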

How the data were processed

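RNA was measured as 1 bulk library per mouse. The authors deduplicated reads by molecular identifiers, aligned them to mm39 and counted those overlapping whole gene bodies. What they deposited are counts per gene, in whole numbers and without normalization. Per the submitters' processing notes these steps used UMI-tools 1.1.2, STAR 2.7.10a and HTSeq 2.0.2. The library kit was directional, and the strand setting of the counting is not given in the sources used here. Reads that HTSeq did not assign to a gene, 12.6% to 18.7% per sample, stayed out of library sizes and tests.

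Counts of the 28 samples were tested with R 4.3.3 and edgeR 4.0.16 (TMM, robust quasi-likelihood F test, group and sex in the model), for genotype and age over the 18 AL-fed samples and for diet and genotype on DR over the 18 samples of 22 weeks, so that comparisons share control samples. Adjusted p-values are Benjamini-Hochberg over 12353 genes. Interactions had no limit on the fold. For single members a two-sided exact permutation test of the difference in mean normalized counts was added. DESeq2 1.42.0 was an alternative. Depth bounds precision: raw counts of members ran from 60 to 14014 per sample, and no sequencing or extraction batch is named in the labels, so none could be checked. Symbols, positions and overlaps came from GENCODE vM39 (56017 genes matched), near-identical copies from blastn (95% identity over 400 bases). Correlations used log2 CPM with a prior count of 2, or log2 normalized counts centred on group means for the marker sums. Sex was not removed from either, and within some groups the fat and smooth muscle sums differed by sex, so that the correlations within groups mix sex with tissue makeup.

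Every member is named, with up to 4 called genes of smallest p per pathway list and comparison, the 3 genes most correlated with each member, and marker sums. A gene that this rule names is not reported here. The members and lists were chosen with earlier results of these data known, so no test of a list is given. The models with summed fat or macrophage markers as a covariate were added after the marker sums had been seen. On data simulated for genotype at 22 weeks on AL over 12353 genes, edgeR recovered 84 of 100 genes changed 3-fold and 29 of 100 changed 1.5-fold, and called 8 unchanged genes.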

Additional observations from a re-analysis of the deposited data

Results flagged for a closer look

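The change of Gpx1 with age differed between the genotypes by the test of the interaction itself, with a log2 value of 0.51 (standard error 0.12, edgeR adjusted p = 0.0445; fits without 1 mouse gave adjusted p = 0.0172 to 0.116, the other alternatives 0.000303 to 0.334). The Ercc1Δ/− mice had the higher value at 22 weeks and the WT mice the lower.

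Within groups of 4 or 5 mice, 2 of 60 sets of values held a mouse far from the rest, where chance gives about 1 in 20. Prdx5 was 493 normalized counts in sample 027 of the Ercc1Δ/− mice of 6 weeks, with the next at 325. This mouse had the highest fat markers of all. Sod2 was 394 normalized counts in sample 011 of the WT mice of 6 weeks, with the next at 292, and its fat markers, at 8987, were the highest of its group.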

How the results depend on the processing

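No member changed sign in a called value under any alternative. Of 2230 recomputed values of members 58 lost a call and 13 gained one, and 129 uncalled values changed sign. The calls by edgeR numbered 2 for genotype at 22 weeks on AL, 2 for diet in Ercc1Δ/− mice, 1 for genotype on DR, 1 for the genotype by age interaction and 0 for age in Ercc1Δ/− mice and for the genotype by diet interaction. For genotype at 22 weeks on AL the count was 1 without the filter on low counts, with sample 003, with the fat markers as a covariate and after thinning to the lowest total, and 0 with the macrophage markers as a covariate. It was 3, Prdx6 added, without the sex term and with all 6 groups. For diet in Ercc1Δ/− mice it was 0 with sample 003, with only the compared groups, with the macrophage markers and after thinning. For genotype on DR it was 0 with all 6 groups, with either marker covariate and after thinning. The genotype by age interaction gave 2 in DESeq2 and 0 without the filter, with sample 003, without the sex term, with either covariate and after thinning. Age in Ercc1Δ/− mice gave 1 in DESeq2 and with all 6 groups, and the genotype by diet interaction gave 1 in DESeq2 and with the fat markers. Leaving out 1 mouse gave 1 to 2 calls for genotype at 22 weeks on AL, 0 to 2 for age and for diet in Ercc1Δ/− mice, and 0 to 1 for genotype on DR and both interactions. The cause of these moves was not tested. Thinning lowers the counts themselves, and totals at 22 weeks differed between the genotypes without overlap, both on AL and on DR. In the simulation 29 of 100 genes changed 1.5-fold were recovered. Far fewer genes were changed there than were called in the data, which makes the adjusted p harder to pass. Smaller differences can still be missed in this design, at a rate that the simulation does not give. The median of all tested genes moved by at most 0.02 on the log2 scale. No paired analysis was possible because each mouse gave 1 sample and its number occurs in 1 group only.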
